A study of Mus musculus with 96 samples.

Results

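Expression of 10 genes of fatty acid synthesis and lipid storage was examined in single cells of the mouse lung line C10: Srebf1, Acly, Acaca, Fasn, Elovl6, Scd1, Scd2, Fads1, Fads2 and Plin2. These 10 of the 40202 genes in the count tables were taken by name for their known role, and every one was found. The series holds 96 libraries, each from 1 cell: 48 from untreated cells (control) and 48 from cells given RO-3306, which is marketed to block CDK1, the kinase of mitotic entry. All cells grew in RPMI medium with fetal bovine serum, and the labels give a dose of 10 nM for 36 h. This is lower than is usual for the compound, which 1 label spells R03306, and the tables hold no measure of CDK1 activity. Single cells were placed in nanowells with a CellenONE dispenser, and SMART-seq V4 cDNA was read from 1 end over 150 nt. The labels name no genotype, passage or separate culture, so each treatment counts as 1 sample, and no p-value is given for any difference between them.

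Fatty acid synthesis starts in the cytosol, where ATP citrate lyase makes acetyl-CoA, acetyl-CoA carboxylase turns it into malonyl-CoA, and fatty acid synthase builds palmitate from both. Elongases lengthen palmitate and desaturases add double bonds, and the products enter membranes or are esterified to triglycerides and stored in droplets that perilipins coat. In alveolar type II cells this pathway feeds the lipids of surfactant, and the transcription factor SREBP-1, encoded by Srebf1, is known to drive many of its genes.

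A minimum of 50000 counts and 1000 detected genes kept 29 of 48 cells in control and 37 of 48 in RO-3306. Kept cells had a median total of 1753427 counts in control and 2234309 in RO-3306, and a median of 5177 and 6951 genes with a count. The mitochondrial share was at most 6.03% in control cells, and 1 RO-3306 cell lay over 20%, at 56.0%. The labels call C10 alveolar type II epithelial, but Sftpa1, Sftpc, Sftpd, Slc34a2 and Napsa had no count in any kept cell, and Sftpb had a count in 1 RO-3306 cell only. Other genes of that list had counts: Abca3 in 7 of 29 and 12 of 37 cells (9.38 and 5.21 CPM in control and RO-3306), Lpcat1 in 7 and 17 cells (13.5 and 18.7 CPM), Etv5 in 13 and 11, and Lamp3 in 8 and 7. The adipocyte markers Adipoq, Cidec, Lep, Retn and Pparg were also at 0, and the 7 adipocyte genes summed to at most 0.570 counts per 1000000 in any cell. The mesenchymal list was abundant in both groups, at 5630 CPM in control and 2531 in RO-3306, and its part in the differences below was not tested. Levels here and below are CPM: the counts of a gene, added up over a group's kept cells, out of every 1000000 counts of those cells.

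Among the 10 genes, the droplet coat gene Plin2 was higher in RO-3306 cells, and the elongase Elovl6 and the desaturase Scd2 were lower. The titles hold 4 lettered sets (A to D), whose meaning the labels do not give and which are not replicates. A gene was called higher or lower where its summed CPM, with 1 CPM added in both groups, differed at least 2-fold. The difference also had to have the same sign in all 4 sets. By this rule 2 of the 10 genes were lower, against 6.43% of the 9374 genes whose mean reached 5 CPM, and 1 was higher, against 7.23%. In either direction this made 3 of 10 genes, against 13.7% of all. In the sums alone, with no regard to the sets, the same 2 genes were at least 2-fold lower, beside 24.2% of all genes, and 1 was higher, beside 12.2%. All 10 genes passed the minimum of 5 CPM. The remaining 7 had no direction: their sets disagreed in sign, and none reached 2-fold in the sums by the ratio used here. Without the added 1 CPM, Acaca was 2.004-fold lower in the sums. The median log2 ratio of the 10 genes was -0.71, with 8 below 0 and 2 above, beside -0.22 for all 9374 genes. These ratios are log2 of RO-3306 over control after 1 CPM was added to both, which understates the difference of low genes.

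**Figure D1:**
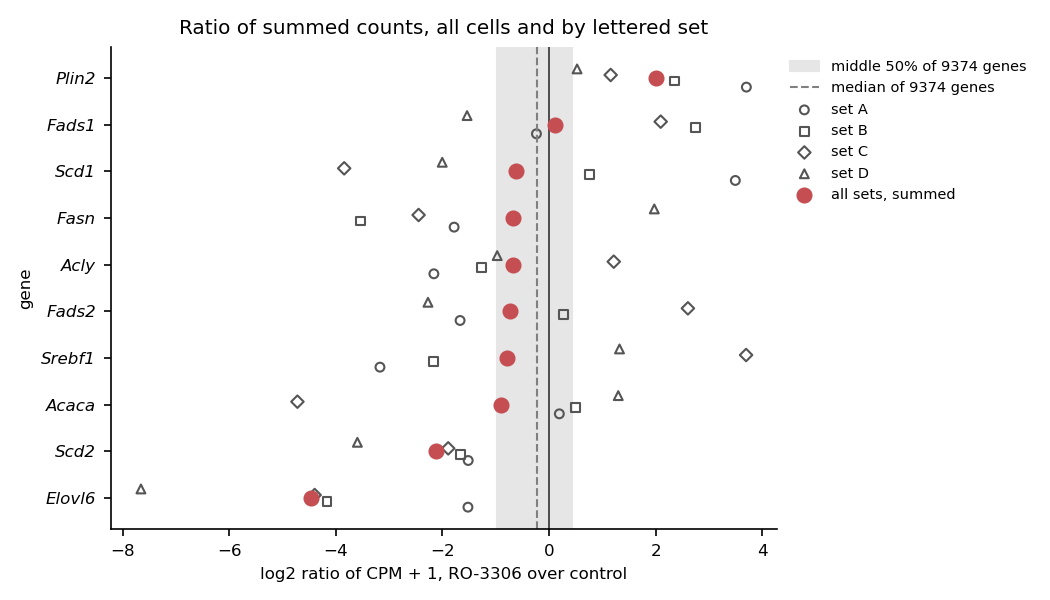
The log2 ratio of summed CPM + 1, RO-3306 over control, is on the x axis for each of the 10 genes. Red points use all kept cells, open symbols 1 lettered set each, the grey band is the middle 50% of all genes (-0.98 to 0.43) and the dashed line their median (-0.22). Plin2 lies right of 0 in every set, Elovl6 and Scd2 lie left of 0 in every set, and the other 7 genes have sets on both sides.

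The summed CPM of the 10 genes was nearly equal in both groups, while its makeup differed. Their summed level was 479 CPM in control (95% exact Poisson interval 473 to 484), against 476 CPM in RO-3306 (472 to 481). Intervals on counts cover counting error only, and reads without molecular identifiers include PCR copies. Intervals on shares cover only the number of cells drawn, and neither kind covers the spread between cultures. Per cell, the sum ran from 0.587 through a median of 418 to 1614 CPM in control and from 61.0 through 432 to 1398 CPM in RO-3306, so the groups overlapped over nearly their whole range. Without Plin2, the other 9 genes summed to 406 CPM in control (401 to 411), against 181 CPM in RO-3306 (179 to 184), a ratio of 0.447. Plin2 made up 15.2% of the counts of the 10 genes in control and 61.9% in RO-3306. Scd2 made up 30.8% and 6.92%. Plin2 was the most counted of the 10 genes in 5 of 29 cells in control and 28 of 37 in RO-3306, and Scd2 in 10 and 0.

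Reads fall along the whole transcript in SMART-seq, so levels of different genes were compared per kb of mRNA. The counts also take in reads in introns, which this length leaves out, so the order is approximate. Gene spans ran from 13189 bases for Scd2 to 272017 for Acaca. Per kb, the 10 genes together were not level, at 123 CPM per kb in control and 199 in RO-3306. Plin2 made up 31.4% and 78.5% of these sums. On this scale Plin2 was first in both groups, at 38.5 CPM per kb in control and 156 in RO-3306. In control it was followed by Scd2 (26.99), Fads1 (18.3), Acly (10.9), Elovl6 (10.6) and Fads2 (8.31). Acly and Elovl6 are neighbours in that order whose values nearly coincide. Scd1 (3.43), Srebf1 (2.54), Fasn (1.86) and Acaca (1.25) were the lowest in control. In RO-3306 the order after Plin2 was Fads1 (19.7), Acly (6.69), Scd2 (6.04), Fads2 (4.88), Scd1 (2.16), Srebf1 (1.36), Fasn (1.12), Acaca (0.622) and Elovl6 (0.323). Elovl6 thus went from above Fads2 in control to the last place in RO-3306, and Scd2 from above Fads1 to below Acly.

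**Figure D2:**
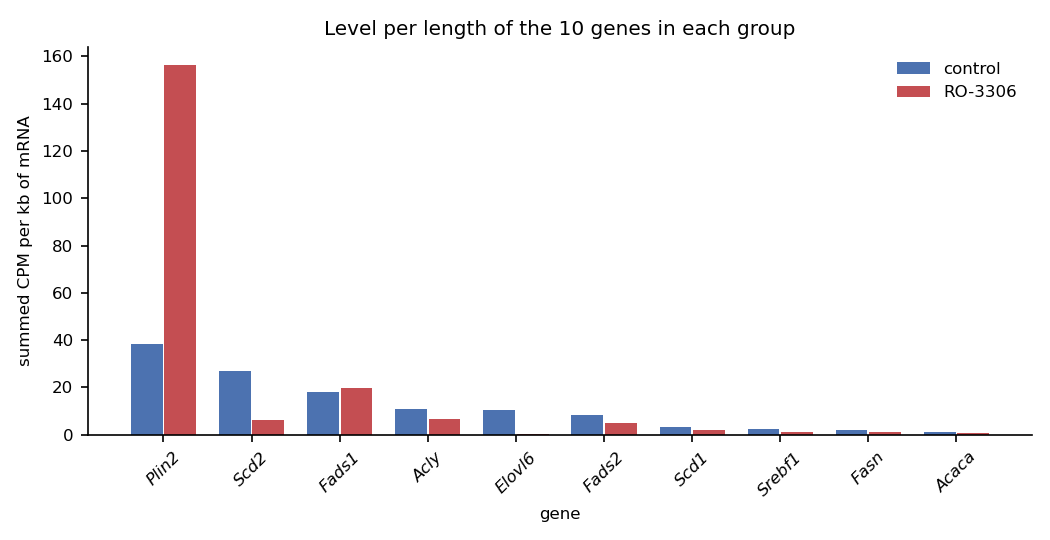
Bars give the summed CPM per kb of mRNA (y axis, from 0) of each gene (x axis) in control (blue) and RO-3306 (red). Plin2 stands at 38.5 and 156, Scd2 at 26.99 and 6.04, and Elovl6 at 10.6 and 0.323.

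Plin2 encodes perilipin 2, a protein that coats lipid droplets in most cell types and is stable only while bound to them. In control cells Plin2 ran from 0 through a median of 6.61 to 674 CPM, and in RO-3306 cells from 0 through 220 to 751 CPM. Most RO-3306 cells were high: 28 of 37 (75.7%, exact Clopper-Pearson interval 58.8% to 88.2%) reached 100 CPM, against 8 of 29 control cells (27.6%, 12.7% to 47.2%). The ranges overlapped, since 8 control cells also reached 100 CPM and 4 RO-3306 cells lay under 10 CPM. In the sums, Plin2 was at 72.7 CPM in control (70.6 to 74.8), against 295 CPM in RO-3306 (291 to 298), a log2 ratio of 2.01 and a 4.06-fold difference (exact conditional interval 3.93 to 4.18).

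The Plin2 difference varied between the lettered sets, mostly through control. In sets A, B, C and D the control sums were 16.7, 79.9, 119 and 184 CPM. The RO-3306 sums were 229, 412, 267 and 265 CPM. The log2 ratio was 3.70, 2.35, 1.15 and 0.52 in that order, so set D alone did not reach 2-fold. In control, the cell with most Plin2 counts held 23.3% of them, and in RO-3306 8.98%, the lowest such share of any of the 10 genes. Without those cells the log2 ratio was 2.17. Plin2 counts were fractional, split with other sites in the genome, in 33.3% of the kept cells with a count.

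Elovl6 encodes the elongase that takes palmitate to stearate. In control cells it ran from 0 through a median of 0.617 to 1196 CPM, and in RO-3306 cells from 0 through 0 to 26.5 CPM. The control level came from few cells: 4 of 29 exceeded 100 CPM and held 90.3% of the control counts of Elovl6, and 6 of 29 reached 10 CPM. No RO-3306 cell reached 100 CPM (0 of 37, exact upper bound 9.49%), and 3 reached 10 CPM. Most cells of both groups were therefore alike at or near 0, and the groups part by a small number of high control cells. The sums were 63.3 CPM in control (61.4 to 65.2), against 1.92 CPM in RO-3306 (1.66 to 2.23), a log2 ratio of -4.46 and 32.9-fold lower in RO-3306.

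The cells with high Elovl6 lay in sets B, C and D. Control sums were 3.64, 65.1, 91.9 and 225 CPM in sets A to D, against 0.616, 2.69, 3.41 and 0.120 CPM in RO-3306. In set A the highest cell was at 14.7 CPM in control, below 21.01 CPM in RO-3306, and the call was lost where every cell was given equal weight in place of its counts, with a log2 ratio of -4.83 in all cells. The control cell with most counts held 39.8% of them, and without the top cell of each group the log2 ratio was -4.40. After each cell was thinned to 639000 reads, 9 of 25 cells in control (36.0%, 17.97% to 57.5%) and 2 of 34 in RO-3306 (5.88%, 0.720% to 19.7%) had an Elovl6 count. A drop in the share of cells at least this large was seen in 0.384% of the 9374 genes. These shares take in cells with any read. At 5 counts or more, without thinning, the gap was smaller and the intervals overlapped. The shares were then 7 of 29 cells in control (24.1%, 10.3% to 43.5%) and 3 of 37 in RO-3306 (8.11%, 1.70% to 21.9%). Elovl6 counts were fractional in 81.1% of the kept cells with a count, so reads shared with other sites enter its level. This is a share of cells, not of counts. The control cells over 100 CPM in sets B and D held whole counts (1036, 347 and 1662), and that in set C held 730.95.

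Plin2 and Elovl6 mark the ends of the range of the 10 genes, and the 250 bases before their start sites are shown for that reason, from RefSeq on GRCm38.p6, an older build than that of the counts. Capitals mark a CCAAT box, searched on both strands. The Plin2 window is chr4:86670060-86670309 on the minus strand, and the Elovl6 window is chr3:129532136-129532385 on the plus strand.
Plin2: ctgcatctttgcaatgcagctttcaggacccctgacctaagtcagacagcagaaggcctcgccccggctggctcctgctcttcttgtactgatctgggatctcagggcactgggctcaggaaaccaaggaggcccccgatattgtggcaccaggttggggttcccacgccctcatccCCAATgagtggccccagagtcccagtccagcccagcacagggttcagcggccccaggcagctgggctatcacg
Elovl6: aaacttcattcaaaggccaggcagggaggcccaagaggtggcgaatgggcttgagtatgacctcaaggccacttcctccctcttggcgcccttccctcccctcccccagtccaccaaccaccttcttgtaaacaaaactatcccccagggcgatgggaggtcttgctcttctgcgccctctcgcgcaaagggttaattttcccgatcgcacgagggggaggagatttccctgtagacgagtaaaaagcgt
Plin2 holds 1 CCAAT box, 73 bases before the start, and the Elovl6 window holds none. CCAAT is present in 33.8% of the 32851 windows of this length. Windows were found for 7 of the 10 genes (9 windows), and not for Scd1, Scd2 and Fads1. The Acaca window was 39.2% G and C, beside a median of 52.4% over all windows. Whether it precedes the main start of Acaca was not tested. The sterol response element TCACNCCAC, which SREBPs bind, was in none of these 9 windows and in 1.05% of all windows. The E-box CACGTG was likewise in none, beside 6.02% of all windows. Fasn held 3 CCAAT matches, at 90, 62 and 59 bases before the start, the last 2 overlapping on opposite strands. Srebf1 windows held CCAAT at 30 and at 166 bases before their starts. The GC box GGGCGG was found in the windows of Acly (4), Fads2 (1) and Srebf1, beside 32.7% of all windows. These are matches of letters in a short window and say nothing of binding.

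Srebf1, the gene of the transcription factor SREBP-1, was seen in few cells. It ran from 0 through a median of 0 to 93.0 CPM in control and from 0 through 0 to 104 CPM in RO-3306, while 6 of 29 and 11 of 37 cells held a count. The sums were 10.9 and 5.87 CPM, a log2 ratio of -0.79. The sets split evenly in sign, with -3.17 and -2.16 in sets A and B and 3.70 and 1.32 in sets C and D. In RO-3306, 1 cell held 66.7% of the counts, and without the top cell of each group the log2 ratio was -1.46. No direction can be read for Srebf1 from these cells.

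The 3 genes from citrate to palmitate had no common direction either. Acly, for ATP citrate lyase, ran from 0 through a median of 0 to 443 CPM in control and from 0 through 0.600 to 330 CPM in RO-3306. Its sums were 48.04 CPM (46.4 to 49.7) and 29.6 CPM (28.5 to 30.7), with log2 ratios of -2.16, -1.27, 1.21 and -0.97 in sets A to D. Set C differs from the others: 1 RO-3306 cell in it held 42.1% of the RO-3306 counts, and without set C Acly was called lower, at -1.83. Without set A its ratio was 0.20.

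Fasn, for fatty acid synthase, was detected in 8 of 29 cells in control and 9 of 37 in RO-3306. It ran from 0 through a median of 0 to 185 CPM in control and from 0 through 0 to 116 CPM in RO-3306. The sums were 18.7 CPM (17.7 to 19.8) and 11.3 CPM (10.6 to 12.005), a log2 ratio of -0.68. Fasn was lower in sets A, B and C (-1.78, -3.53 and -2.45) and higher in set D (1.97), where 1 RO-3306 cell held 49.1% of all RO-3306 counts. Without set D Fasn was called lower, at -1.98.

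Acaca, for acetyl-CoA carboxylase 1 of the cytosol, ran from 0 through a median of 0.413 to 186 CPM in control and from 0 through 0.2998 to 188 CPM in RO-3306. Its sums were 11.9 CPM (11.04 to 12.7) and 5.92 CPM (5.43 to 6.43), a log2 ratio of -0.89. Set C gave -4.72 and the other sets 0.19, 0.49 and 1.30, and without set C the ratio was 0.16. A few cells carried the counts, 42.2% in 1 control cell and 67.6% in 1 RO-3306 cell. The Acaca span on GRCm39, chr11:84020461-84292477, shares 7.03% of its length with Gm11437 and Tada2a, and the counting used no strand option, so reads of these genes there cannot be told apart.

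The stearoyl-CoA desaturases, which put the first double bond into saturated acyl chains, differed from each other in abundance. Scd2 ran from 0 through a median of 30.3 to 768 CPM in control and from 0 through 9.28 to 229 CPM in RO-3306. The share of cells with an Scd2 count was alike, 22 of 29 (75.9%) and 28 of 37 (75.7%), but 10 control cells (34.5%, 17.9% to 54.3%) and 4 RO-3306 cells (10.8%, 3.03% to 25.4%) reached 100 CPM. The high end of Scd2 was thus lower in RO-3306. The sums were 147 CPM in control (144 to 150), against 32.9 CPM in RO-3306 (31.8 to 34.1), a log2 ratio of -2.13 and 4.47-fold lower. In sets A to D the ratio was -1.52, -1.66, -1.89 and -3.60. Control sums were 106, 143, 97.8 and 352 CPM, against 36.3, 44.8, 25.6 and 28.2 CPM, so each RO-3306 sum lay below each control sum. Few cells carried the control sums of sets C and D. In set C, 2 of 6 control cells had an Scd2 count, at 743 and 41. In set D the top control cell held 2516 counts and the next 74. The median cell of set C was at 0 CPM in control, below the 17.5 CPM of treated cells. In sets A, B and D the control median was higher. The top control cell of all sets held 25.9% of the control counts. Without the top cell of each group the log2 ratio was -2.02.

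Scd1 lies beside Scd2 on chromosome 19 and was far sparser, detected in 6 of 29 cells in control and 11 of 37 in RO-3306. It ran from 0 through a median of 0 to 383 CPM in control and from 0 through 0 to 78.1 CPM in RO-3306. Its sums were 16.6 CPM (15.6 to 17.6) and 10.5 CPM (9.81 to 11.1), a log2 ratio of -0.62, with 3.49 and 0.75 in sets A and B and -3.84 and -2.005 in sets C and D. The control sum rested on 1 cell of set C, which held 60.2% of it. Without the top cell of each group the log2 ratio was -0.03. Scd1 counts were fractional in 47.1% of the kept cells with a count.

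Fads1 and Fads2 encode the front-end desaturases that act in turn on essential fatty acids to form longer polyunsaturated ones. Fads1 was found in more RO-3306 cells, though its sums were nearly level. It ran from 0 through a median of 4.17 to 428 CPM in control and from 0 through 35.03 to 695 CPM in RO-3306. A Fads1 count was present in 15 of 29 cells in control (51.7%, 32.5% to 70.6%) and 34 of 37 in RO-3306 (91.9%, 78.1% to 98.3%). In thinned cells the numbers were 13 of 25 (52.0%, 31.3% to 72.2%) and 31 of 34 (91.2%, 76.3% to 98.1%). More cells with a count was a common pattern: 71.9% of the 9374 genes had a larger share of thinned cells in RO-3306, and 5.48% gained at least as many percentage points as Fads1.

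The sums of Fads1 were 63.2 CPM in control (61.3 to 65.1), against 68.1 CPM in RO-3306 (66.4 to 69.8), a log2 ratio of 0.11. The ratio was -0.24, 2.75, 2.09 and -1.54 in sets A to D. In control set D all 5 cells had a Fads1 count, and 4 of them reached 100 CPM, while the other held 1 count. By contrast, in control set C 1 of 6 cells had a count. Without set B the ratio was -0.52 and without set D 0.70, so the sums give Fads1 no direction.

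Fads2 ran from 0 through a median of 0 to 100.3 CPM in control and from 0 through 0 to 166 CPM in RO-3306. Fads2 was detected in 12 of 29 control and 16 of 37 RO-3306 cells, nearly the same share (41.4% and 43.2%). The sums were 26.2 CPM (24.98 to 27.5) and 15.4 CPM (14.6 to 16.2), a log2 ratio of -0.73. Sets A and D were below 0 (-1.67 and -2.27) and sets B and C above (0.27 and 2.60), so Fads2 had no direction.

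**Figure D3:**
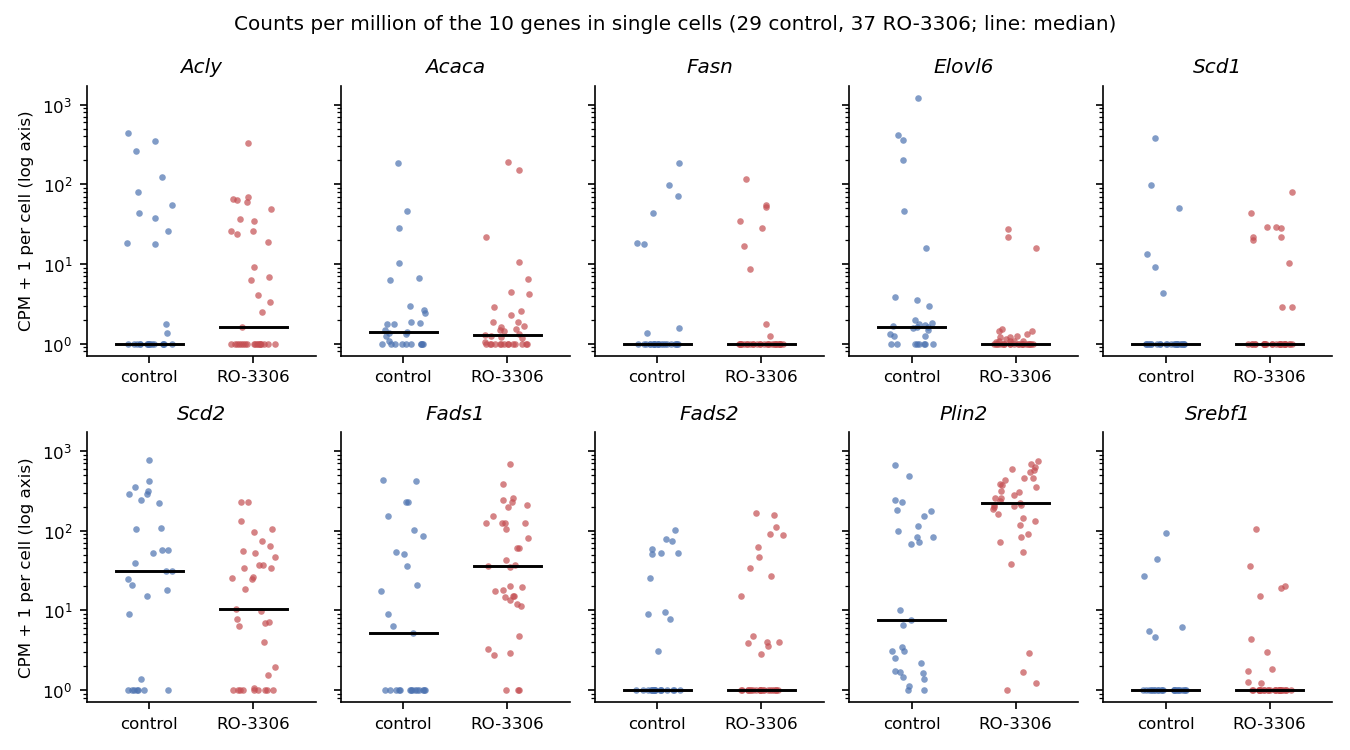
Each point is 1 kept cell, with CPM + 1 on a log y axis, for control (blue, 29 cells) and RO-3306 (red, 37 cells), and the black line is the median. Plin2 and Fads1 have higher medians in RO-3306 (220 against 6.61 and 35.03 against 4.17 CPM), the Elovl6 cells over 100 CPM are all control, and Acly, Fasn, Scd1, Fads2 and Srebf1 have medians at or near 0 in both groups.

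Correlations between genes from cell to cell were weak where they could be computed, for 3 of the 10 genes in control and 4 in RO-3306. In thinned cells, Spearman correlations were computed for genes detected in 50% or more of a group's cells. In 25 control cells Scd2, Fads1 and Plin2 gave -0.05 for Scd2 with Fads1, 0.17 for Scd2 with Plin2 and 0.26 for Fads1 with Plin2. In 34 RO-3306 cells the values between Acly, Scd2, Fads1 and Plin2 ran from -0.23 for Acly with Fads1 to 0.26 for Acly with Plin2. These points share depth by construction but not complexity: Scd2 correlated at 0.61 in control and 0.37 in RO-3306 with the number of genes per thinned cell. A thinned cell held a count of a median of 4 of the 10 genes in control and 5 in RO-3306.

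Ratios moved with mRNA length across all genes, and the 10 genes are mostly long. The Spearman correlation of log2 ratio with mRNA length was -0.36 over 9115 genes, across genes that share the same 2 groups of libraries. In 10 bins of equal gene number, from short to long, the median log2 ratio went from 0.26 in bin 1 to -0.88 in bin 10. Acaca and Fasn fall in bin 10, Elovl6 and Scd2 in bin 9 (median -0.82), and Plin2 in bin 3 (0.07). The share of genes called also moved with length: 10.8% in bin 9 were lower and 8.99% in bin 3 were higher. Bins 8 and 10 had 9.43% and 12.2% lower. Relative to the median of its own bin, Plin2 stood at 1.94, Scd2 at -1.30 and Elovl6 at -3.64, and these 3 were still past the rule. Acly (-0.07), Acaca (-0.02), Scd1 (-0.01), Srebf1 (-0.18) and Fasn (0.20) lay close to genes of their length. Fads1 stood at 0.44 and Fads2 at -0.40. The median of the 10 genes was then -0.044. What lies behind the length trend was not tested.

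**Figure D4:**
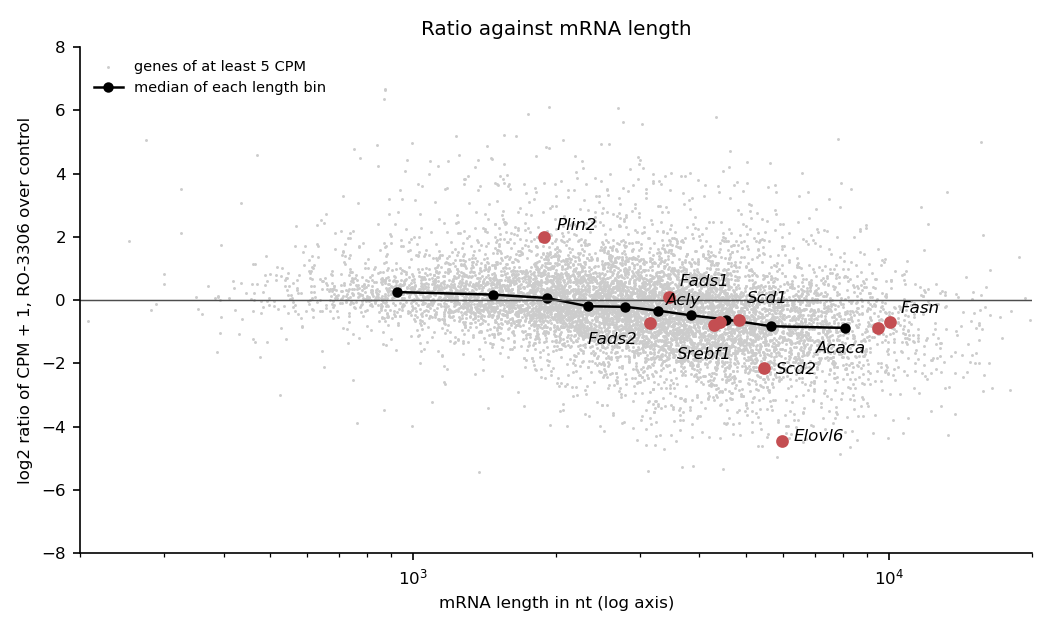
The log2 ratio of CPM + 1 (y axis) is plotted against mRNA length in nt (log x axis) for genes of at least 5 CPM (grey), with the median of each of the 10 length bins (black) and the 10 genes (red). The black line goes from 0.26 to -0.88, Plin2 lies above it, Elovl6 and Scd2 lie below it, and the other 7 genes lie within 0.44 of it.

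Genes that act beside the 10 were read from 6 further lists, of which 84 genes reached a mean of 5 CPM. Of these, 3 were lower (3.57%) and 8 higher (9.52%), beside 6.43% and 7.23% of all genes, and their median log2 ratio was -0.01. None of the 17 measured genes in the list of other fatty acid synthesis genes (citrate export, elongation, activation) was called in either direction, with a median of 0.05. Their median mRNA length was 2782 nt, against 4629 nt for the 10 genes. The medians of the 6 lists were not adjusted for length. Of 11 SREBP regulators 1 was higher and none lower, with a median of -0.79. The higher gene was Insig2, which retains SREBPs in the endoplasmic reticulum, at 57.7 CPM in control, against 146 CPM in RO-3306 (log2 ratio 1.33).

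Storage genes other than Plin2 mostly had no direction. Of 17 measured triglyceride and droplet genes 1 was higher and none lower, with a median of 0.13. It was Bscl2, for seipin, a protein of droplet formation, at 33.1 and 118 CPM (log2 ratio 1.81). Plin3, another perilipin, was at 181 and 227 CPM (log2 ratio 0.33) without a common sign. Of 6 measured genes of lipolysis and fatty acid uptake 2 were higher: Pnpla2, for the triglyceride lipase of droplets, at 19.9 and 61.6 CPM (1.58), and Slc27a1, for a fatty acid transporter, at 7.24 and 25.9 CPM (1.71). The median of these 6 genes was 0.80.

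Fatty acid oxidation genes were mixed. Of 17 measured genes, Cpt1c (16.1 and 39.01 CPM), Cpt2 (13.02 and 35.1 CPM) and Acaa2 (19.3 and 66.3 CPM) were higher, with log2 ratios of 1.23, 1.37 and 1.73. Cpt2 encodes the carnitine palmitoyltransferase of the inner mitochondrial membrane, and Acaa2 the last enzyme of a cycle of beta-oxidation. Acadm, for the medium-chain acyl-CoA dehydrogenase, was lower, at 153 and 51.6 CPM (-1.55). The median of this list was -0.28.

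In the cholesterol list, which SREBPs also control, 2 of 16 measured genes were lower and 1 higher, with a median of -0.45. The lower genes were Hmgcs1, for HMG-CoA synthase, at 65.2 and 12.6 CPM (log2 ratio -2.28), and Cyp51, for lanosterol demethylase, at 68.7 and 19.1 CPM (-1.79). The higher one was Tm7sf2, a sterol reductase gene, which had no count in any kept control cell and 11.8 CPM in RO-3306.

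**Figure D5:**
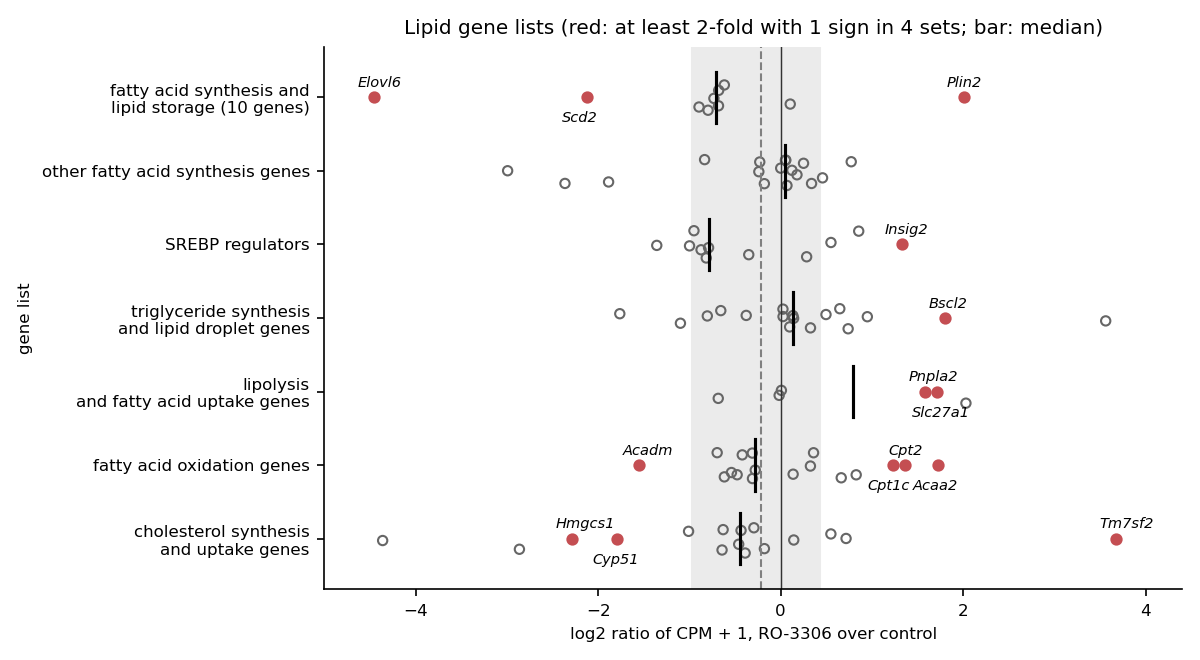
Each point is 1 gene of a lipid list (y axis) at its log2 ratio of CPM + 1, RO-3306 over control (x axis). Red named points are called higher or lower, black bars are list medians, and the band and dashed line are the middle 50% and the median of all genes. The 10 genes have a median of -0.71 and span Elovl6 at -4.46 to Plin2 at 2.01, and the 17 other fatty acid synthesis genes hold no called gene. Medians are not adjusted for mRNA length.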

How the data were processed

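The authors deposited 1 table of expected counts for each library. Per the file headers, featureCounts 2.0.3 counted whole gene spans of the RefSeq annotation of GRCm39, introns included, shared multiply placed reads out as fractions and was given no strand option. The submitters' processing notes also name FastQC and STAR, with no version or role. Counts carry no molecular identifiers.

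Kept cells had at least 50000 counts and 1000 genes, which left out 19 control and 11 RO-3306 libraries, and no 2 kept libraries held identical values. Library totals ran from 5 to 6457215 counts in control and from 2320 to 5321880 in RO-3306. The labels name no culture, so counts were summed over the cells of a treatment, and no test was run. Levels are CPM with exact Poisson intervals and shares have exact Clopper-Pearson intervals, both at 95%, after rounding counts to whole numbers. Ratios used a pseudocount of 1 CPM. For shares and correlations cells were thinned to 639000 reads (percentile 10 of kept totals), which left out 4 control and 3 RO-3306 cells. A count was called fractional when over 1e-06 from a whole number.

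mRNA length was the longest protein-coding transcript of a symbol in GENCODE M21, found for 97.2% of genes. Promoter letters came from RefSeq on GRCm38.p6. The 10 genes and all lists were chosen with earlier results of these data known. All 10 genes are named, and from each other lipid list up to 3 higher and 3 lower genes that reach a mean of 20 CPM, past the rule in all 4 sets. Slc27a1, Tm7sf2 and Plin3 fall outside this rule and were named after their values were seen. Among marker lists, in control and RO-3306, alveolar type II genes summed to 23.5 and 27.7 CPM, epithelial genes to 1.78 and 0.978, macrophage genes to 58.6 and 61.3, and adipocyte genes to 0.0151 and 0.0108. In the mesenchymal list Col1a1 (714 and 127 CPM) and Col3a1 (603 and 83.6 CPM) were lower. Alternatives used TMM factors of edgeR 4.0.16 and size factors of DESeq2 1.42.0 in R 4.3.3. Other steps ran in Python 3.11.15 (matplotlib 3.10.9, numpy 2.4.6, pandas 2.3.3, scipy 1.17.1). The summing and ratio steps were tested on simulated data.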

Additional observations from a re-analysis of the deposited data

Results flagged for a closer look

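Libraries below the minimum of counts or of genes were used in no comparison, and Plin2 appeared in those of RO-3306 above the level in those of control. In the 11 left-out RO-3306 libraries Plin2 had 100 counts, or 86.0 CPM (95% exact Poisson interval 70.0 to 105), in 3 libraries. Of these counts 92 came from 1 library, which passed the minimum of counts (63235) but not that of genes (743). Without it Plin2 had 8 counts in the other 10 libraries, or 7.28 CPM (3.14 to 14.3), within the control interval. In the 19 left-out control libraries it had 1 count, or 2.93 CPM (0.0742 to 16.3). Another left-out RO-3306 library held 773537 of the 1162603 counts of the 11 and was 87.3% mitochondrial. Both RO-3306 CPM values therefore depend largely on the total of that library.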

How the results depend on the processing

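Over 54 results, 382 alternative values were computed. Of these, 206 were labelled as within the counting interval or near the reported count, and 176 as moved. Every alternative of the median over all genes was labelled moved without a check of its size. The 176 thus include small shifts, such as -0.23 against -0.22 with a pseudocount of 0.1 CPM. A change of sign was looked for only in the log2 ratios of the called genes Plin2, Scd2 and Elovl6, and 0 reversed. Plin2 was above 0 in all 15 alternatives (log2 ratio 1.54 to 4.86), Scd2 below 0 in all 15 (-2.38 to -1.30) and Elovl6 below 0 in all 15 (-5.35 to -0.69). Without the RO-3306 cell over the 20% mitochondrial limit, Plin2 was at 2.01, Scd2 at -2.12 and Elovl6 at -4.46. The other 7 genes each had an alternative at 0 or on the other side.

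The median log2 ratio of the 10 genes was -0.51 with TMM factors and -0.48 with DESeq2 size factors, which shift all genes by 0.21 and 0.24. It was -0.58 with a pseudocount of 5 CPM and -0.46 with the mean over cells. Without set A it was -0.42, without set B -0.88 and without set C -0.52. With the median of genes of the same length bin subtracted it was -0.044. The median over cells left 3 genes at 5 CPM, with a median of 2.80, and 0 of them called lower: Scd2 stood at -1.61, but its cell medians in set C were 0 CPM (control) and 17.5 CPM (treated cells). With the mean over cells the 2 lower genes were Acly and Scd2, and without set C or set D Acly or Fasn was added. With either scaling Nr1h2 joined Insig2 among the higher SREBP regulators.

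No paired analysis was possible because the result comes from no test: each treatment is 1 sample, and the labels do not say what the letters and numbers of the titles mean. Sparse counts limit Srebf1, Scd1 and Fasn, which were seen in at most 11 cells of a group.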

Other observations

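Several lipid genes with large ratios in the sums had no common sign over the sets, and these were picked after their values were seen. The acyl-CoA synthetase genes Acsl3 (30.5 CPM in control, 2.96 in RO-3306, log2 ratio -2.99) and Acsl4 (107 and 20.05 CPM in the same order, -2.36) were low in the RO-3306 sums. For Acsl3 set D had a ratio of 0.00, and for Acsl4 sets C and D gave 2.24 and 0.49. Mgll, for monoglyceride lipase, was at 9.20 and 40.7 CPM (2.03), with set A at -0.27 and a count in 3 of 29 control and 23 of 37 RO-3306 cells. In a left-out control library Acaca had 17 counts, the whole of its counts in the 19 left-out control libraries.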
